A study of Rattus norvegicus with 6 samples.

Results

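The integrated stress response was examined in ischemic rat myocardium through 10 genes, Atf4 and 9 genes described as its targets, among the 32623 genes of the deposited table. The members were the rows named Atf4, Ddit3, Trib3, Chac1, Ppp1r15a, Asns, Psat1, Phgdh, Mthfd2 and Shmt2. All 10 were found once in the table, and all 10 were among the 13964 genes that were tested. Total RNA of myocardial tissue was sequenced in 3 samples of a sham group and 3 of an ischemia group, in which for 30 min the left anterior descending coronary artery was tied off. All animals carried the WT genotype and were described as male. The strain and the age are not given in the sources used here, and the sample names carry the same 30 min for sham. The study's methods name a sham operation with vehicle injected into the tail vein for its reperfusion experiment, and whether the sequenced sham rats were treated that way is not stated. The labels number the samples of each group 1 to 3 and do not say that each came from a separate rat, so the p-values measure the spread between these samples, which may in part be technical.

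In the integrated stress response, kinases that sense missing amino acids, misfolded protein, haem shortage or double-stranded RNA phosphorylate the initiation factor eIF2. Most translation then slows, while the mRNA of the transcription factor Atf4 is translated more. Atf4 pairs with other leucine zipper proteins of the C/EBP and ATF families and binds C/EBP-ATF elements in genes of amino acid synthesis and transport, of the mitochondrial folate pathway and of cell death. In the heart the response is best known from mitochondrial disease, where serine and folate enzymes are induced. Because Atf4 is controlled mainly at translation, its mRNA level is not a measure of its protein.

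The start regions of 5 members are shown because they hold the only matches to the elements searched, or belong to the members that passed the test. They were taken from RefSeq on the GRCr8 build, from 250 bases before to 50 bases after the annotated start, and all 10 members matched an entry. The C/EBP-ATF element was searched as TGATGNAA and the cAMP response element, a site bound by ATF and CREB proteins, as TGACGTCA, both on either strand. Capitals mark the match. Chac1 lies at chr3:126795881-126796180 on the plus strand, Trib3 at chr3:161275484-161275783 on the minus strand, Ppp1r15a at chr1:105139547-105139846 on the minus strand, Mthfd2 at chr4:117380301-117380600 on the minus strand and Shmt2 at chr7:65249518-65249817 on the minus strand.
Chac1: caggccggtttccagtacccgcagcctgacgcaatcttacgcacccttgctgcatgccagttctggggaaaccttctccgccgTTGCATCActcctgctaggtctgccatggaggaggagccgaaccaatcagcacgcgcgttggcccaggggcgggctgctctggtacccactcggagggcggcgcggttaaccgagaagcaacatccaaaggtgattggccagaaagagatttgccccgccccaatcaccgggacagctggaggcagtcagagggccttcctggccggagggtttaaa
Trib3: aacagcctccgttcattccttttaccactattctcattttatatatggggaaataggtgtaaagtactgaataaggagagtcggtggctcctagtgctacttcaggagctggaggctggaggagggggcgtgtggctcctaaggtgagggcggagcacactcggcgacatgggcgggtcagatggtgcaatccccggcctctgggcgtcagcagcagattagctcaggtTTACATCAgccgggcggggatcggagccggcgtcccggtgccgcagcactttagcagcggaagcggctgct
Ppp1r15a: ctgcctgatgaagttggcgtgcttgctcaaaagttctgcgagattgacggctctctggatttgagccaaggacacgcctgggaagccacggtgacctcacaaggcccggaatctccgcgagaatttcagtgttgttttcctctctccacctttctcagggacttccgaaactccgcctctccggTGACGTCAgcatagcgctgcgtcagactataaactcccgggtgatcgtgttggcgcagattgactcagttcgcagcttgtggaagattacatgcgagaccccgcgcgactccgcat
Mthfd2: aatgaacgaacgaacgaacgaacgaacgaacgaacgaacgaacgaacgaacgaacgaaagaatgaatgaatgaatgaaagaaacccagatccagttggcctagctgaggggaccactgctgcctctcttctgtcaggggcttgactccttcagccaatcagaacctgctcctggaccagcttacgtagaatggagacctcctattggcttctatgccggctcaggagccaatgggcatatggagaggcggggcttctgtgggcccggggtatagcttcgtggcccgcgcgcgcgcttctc
Shmt2: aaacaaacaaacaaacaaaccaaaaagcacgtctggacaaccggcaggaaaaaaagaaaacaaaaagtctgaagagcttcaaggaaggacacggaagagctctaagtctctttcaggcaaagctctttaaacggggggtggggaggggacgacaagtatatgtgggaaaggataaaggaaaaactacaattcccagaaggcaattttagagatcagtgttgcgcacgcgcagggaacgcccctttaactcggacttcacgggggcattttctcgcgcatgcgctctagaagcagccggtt
Chac1 held the C/EBP-ATF element on the reverse strand as TTGCATCA, and so did Trib3 as TTACATCA. Ppp1r15a held the cAMP response element. No other member held either, and no 2 matches overlapped. Of 33469 promoters of the same length, 3.98% held the first element and 1.83% the second. A match is a run of letters and not a measured binding site, and a window without one says only that these letters are absent from it.

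Total counts ranged from 68529126 to 79591989 per sample. The libraries differed in ways the groups did not explain. Sham replicate 1 had 161 counts on 48 genes of chromosome Y, while the remaining 5 samples had 3218 to 8970. This goes against the label, since only male animals are named in the protocol. Its summed FPKM (fragments relative to gene length and to library size) of 7 atrial genes was 48468 and that of sham replicate 3 was 39440, whereas sham replicate 2 had 253 and the ischemia samples had between 1289 and 9646. The summed FPKM of 10 cardiomyocyte genes was 26279 to 44459 in sham and 12925 to 25975 in ischemia, and these genes were present in every sample. Single genes of the list went different ways. FPKM of Myl3 was 796, 9024 and 1021 in sham replicates 1, 2 and 3 and 3180 to 5780 in ischemia. Myl2 was likewise lowest in sham replicates 1 and 3. Myh6 was at 3899 to 4799 in sham and 437 to 1328 in ischemia. Whether the samples held the same parts of the heart was not tested. In bulk tissue, fewer cells of a type and less RNA per cell cannot be told apart.

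Atf4, Mthfd2, Shmt2 and Trib3 were higher in each ischemia sample than in every sham sample. Of these, Mthfd2 and Shmt2, both enzymes of the mitochondrial folate pathway, passed an adjusted p of 0.05 in the quasi-likelihood test of edgeR. The other 8 members did not pass. No member was lower past the threshold, and none was lower at an unadjusted p under 0.05, with DESeq2 and with limma alike. Of all tested genes, 5.18% were called higher and 1.53% lower by the same rule. By the rule of log2 fold change above 2 with an unadjusted p under 0.01, 1 member, Mthfd2, was higher, beside 3.31% of all tested genes. On CPM, counts relative to a library size scaled by the trimmed mean of M-values, the groups were apart in the upward direction for 4 of 10 members and for 22.0% of all tested genes, and in the downward direction for 0 of 10 and for 19.1%. The median log2 fold change of the members was 1.15, against 0.00 for all tested genes, and 9 of 10 were above 0. Ischemia replicate 2 was the highest of the 6 samples for 9 of the 10 members, and for 32.0% of all tested genes. Without it the median fell to 0.55 and 1 member, Mthfd2, passed as higher, beside 3.31% of all tested genes. No gene at all passed in edgeR when sham replicate 1, 2 or 3 or ischemia replicate 3 was left out, with 3020 to 3809 genes at an unadjusted p under 0.05, and so no member did. Without sham replicate 1, the sample with few counts on chromosome Y, the median of the members was 1.10, and 4 of 10 did not overlap beside 25.2% of all tested genes.

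**Figure D1:**
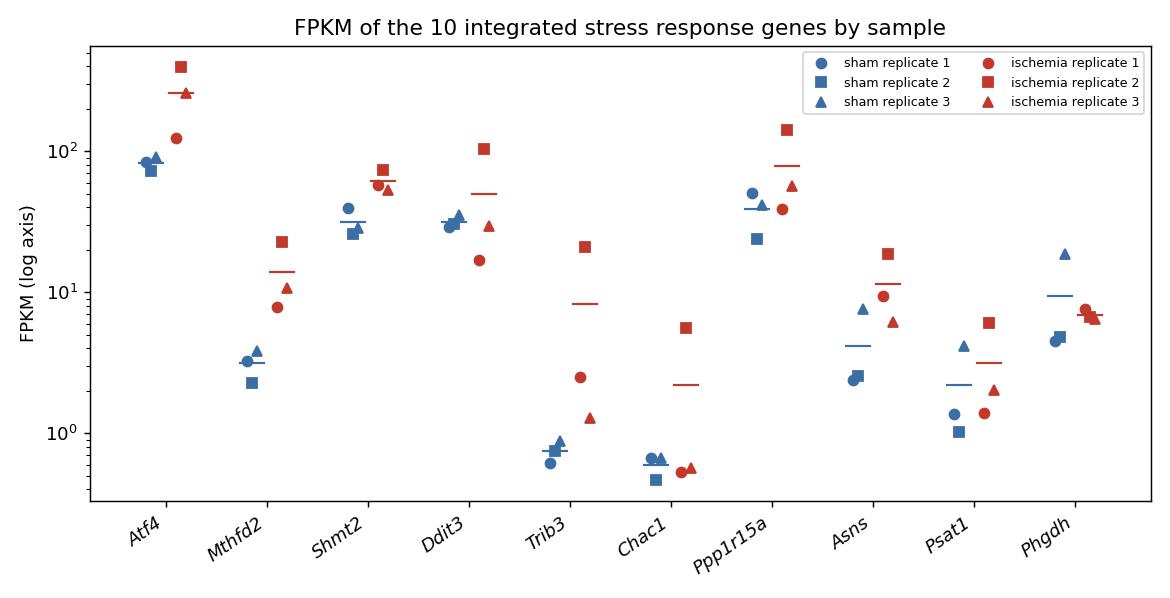
FPKM of each member in each sample on a log axis, with sham and ischemia replicates as separate markers and horizontal bars at the group means. Atf4, Mthfd2, Shmt2 and Trib3 show no overlap of the groups, while for Ddit3, Chac1 and Ppp1r15a ischemia replicate 2 stands above the other samples and for Asns, Psat1 and Phgdh sham replicate 3 stands above the other sham samples.

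Atf4, the transcription factor that carries the response, is listed at chr7:121480723-121482772 (plus strand, ENSRNOG00000017801). In order of replicate number, FPKM of Atf4 was 84.6, 73.0 and 90.6 in sham and 123.7, 398.1 and 258.8 in ischemia, and the same order is kept below. The lowest ischemia sample lay above the highest sham sample, but the ischemia samples differed among themselves by more than the sham samples did. Mean FPKM was 82.7 ± 8.96 in sham and 260.2 ± 137.2 in ischemia (SD, n = 3 each), a ratio of 3.15. The log2 fold change was 1.55, with an SE of 0.40 and an adjusted p of 0.0632 in edgeR, so that it did not pass. Without ischemia replicate 1 it was 1.87 with an adjusted p of 0.0140, and without ischemia replicate 2 it was 1.18 with an adjusted p of 0.112. DESeq2 gave an adjusted p of 0.00242 for Atf4. Atf4 had the highest FPKM of the 10 members in both groups, and only in sham did its range lie apart from that of the next member, Ppp1r15a.

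Mthfd2, the mitochondrial methylenetetrahydrofolate dehydrogenase and cyclohydrolase, is listed at chr4:115004448-115015965 (minus strand, ENSRNOG00000010833). FPKM of Mthfd2 was 3.28, 2.28 and 3.86 in sham and 7.85, 22.8 and 10.8 in ischemia, so every ischemia sample was more than 2 times the highest sham sample. The raw counts behind these levels were 516, 381 and 577 for sham, against 1334, 3529 and 1576. Mthfd2 rose by 2.04 ± 0.39 on the log2 scale, with an adjusted p of 0.0418 in edgeR. The enzyme is scarce in most differentiated adult tissue, and Mthfd2 stood at rank 7 of 10 in the order of sham levels and at rank 5 in ischemia. The call held without ischemia replicate 2 at 1.55 with an adjusted p of 0.0421, and without ischemia replicate 1 at 2.30 with an adjusted p of 0.0173. It was lost at log2 fold changes of 2.04, 1.93 and 2.15 without sham replicates 1, 2 and 3, with adjusted p of 0.162, 0.0984 and 0.140, and at 2.15 without ischemia replicate 3, with an adjusted p of 0.125.

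Shmt2, the mitochondrial serine hydroxymethyltransferase, converts serine to glycine and hands a carbon unit to folate. It is listed at chr7:70824715-70829815 (minus strand, ENSRNOG00000008106). FPKM of Shmt2 was 39.3, 26.0 and 28.7 in sham and 58.1, 73.4 and 53.1 in ischemia. There was no overlap of the groups, and the ratio of the highest to the lowest ischemia sample was smaller than for any other member with a log2 fold change above 0. Shmt2 rose by 0.89 ± 0.19 on the log2 scale with an adjusted p of 0.0488 in edgeR, which is close to the threshold. It passed without ischemia replicate 1 at an adjusted p of 0.0445. It did not pass when sham replicate 1, 2 or 3, or ischemia replicate 2 or 3, was left out, at adjusted p of 0.159, 0.107, 0.157, 0.0805 and 0.141. The log2 fold changes in these settings were 1.02, 0.86, 0.78, 0.79 and 0.94.

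The members linked to cell death and to the shutdown of the response were among the 9 that were highest in ischemia replicate 2. Trib3, a pseudokinase induced downstream of Atf4 and Ddit3, is listed at chr3:147813473-147819571 (minus strand, ENSRNOG00000007319). FPKM of Trib3 was 0.614, 0.751 and 0.878 in sham and 2.51, 20.8 and 1.28 in ischemia, with counts of 91, 118 and 124 against 401, 3018 and 176. The groups did not overlap, but ischemia replicate 2 stood far above the other 2 ischemia samples. The log2 fold change was 3.27 ± 1.04 with an adjusted p of 0.0952 in edgeR, and 1.28 without ischemia replicate 2 with an adjusted p of 0.138. Its promoter is one of the 2 with a C/EBP-ATF element.

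Chac1, which degrades glutathione, is listed at chr3:111160205-111163425 (plus strand, ENSRNOG00000014387) and is the other member with that element. FPKM of Chac1 was 0.669, 0.464 and 0.663 in sham and 0.532, 5.55 and 0.567 in ischemia. Ischemia replicates 1 and 3 lay inside the sham range, and 1 sample was 10.1 times their mean. The log2 fold change was 1.73 ± 0.93 with an adjusted p of 0.238 in edgeR, and -0.15 with an adjusted p of 0.837 without ischemia replicate 2.

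Ddit3, which encodes the pro-apoptotic factor Chop, is listed at chr7:70580198-70585084 (plus strand, ENSRNOG00000006789). Its end overlaps the gene Mars1 of the opposite strand by 72 bases. FPKM of Ddit3 was 29.0, 30.2 and 35.3 in sham and 16.8, 104.1 and 29.6 in ischemia. One ischemia sample was below every sham sample, 1 was inside the sham range and 1 was far above it. The log2 fold change was 0.53 ± 0.61 with an adjusted p of 0.566 in edgeR, and -0.48 with an adjusted p of 0.364 without ischemia replicate 2.

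Ppp1r15a, also known as Gadd34, recruits the phosphatase that removes the phosphate from eIF2 and so ends the response. It is listed at chr1:101511901-101514974 (minus strand, ENSRNOG00000020938). FPKM of Ppp1r15a was 50.7, 23.8 and 41.9 in sham and 38.8, 140.6 and 56.9 in ischemia. Sham and ischemia overlapped, since ischemia replicate 1 lay below 2 of the sham samples. The log2 fold change was 0.93 ± 0.47 with an adjusted p of 0.215 in edgeR, and 0.30 without ischemia replicate 2.

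Among the members of amino acid synthesis, 1 sham sample stood high. Asns makes asparagine, while Phgdh and Psat1 catalyse successive steps from a glycolytic intermediate to serine. The 3 genes are listed at chr4:33743364-33761163 (minus strand, ENSRNOG00000007546), chr2:200484246-200513564 (minus strand, ENSRNOG00000019328) and chr1:233124092-233145941 (minus strand, ENSRNOG00000013971). FPKM of Asns was 2.37, 2.55 and 7.60 in sham and 9.38, 18.6 and 6.15 in ischemia. FPKM of Psat1 was 1.37, 1.02 and 4.18 in sham and 1.38, 6.06 and 2.02 in ischemia. FPKM of Phgdh was 4.53, 4.84 and 18.8 in sham and 7.62, 6.69 and 6.48 in ischemia. Sham replicate 3 was 3.09, 3.49 and 4.01 times the mean of the other 2 sham samples for Asns, Psat1 and Phgdh, and its own ratio over all tested genes had a median of 1.11. The groups overlapped for all 3, and none passed the test in edgeR. Log2 fold changes were 1.36 ± 0.55 for Asns with an adjusted p of 0.147, 0.45 ± 0.69 for Psat1 with an adjusted p of 0.669 and -0.47 ± 0.54 for Phgdh with an adjusted p of 0.562. Without sham replicate 3 they were 2.01 for Asns, 1.22 for Psat1 and 0.41 for Phgdh, and none passed. Without ischemia replicate 2 they were 0.89 for Asns, -0.34 for Psat1 and -0.41 for Phgdh, and none passed either. Without sham replicate 3 the number of members whose groups did not overlap went from 4 to 7, and the share of all tested genes from 22.0% to 25.2%.

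**Figure D2:**
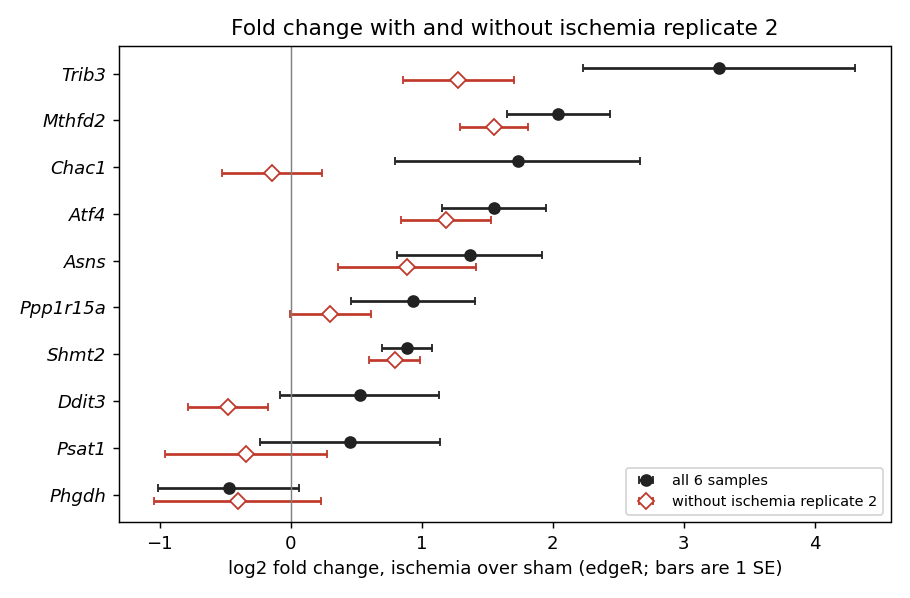
Log2 fold change of each member, ischemia over sham, with bars of 1 SE, with all 6 samples and without ischemia replicate 2. Chac1, Ddit3 and Psat1 move from above 0 to -0.15, -0.48 and -0.34, while Mthfd2, Shmt2, Atf4 and Trib3 stay above 0.

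Ischemia replicate 2, in which 9 of the 10 members were highest, also stood apart in its cell type markers. It had the lowest summed FPKM of 10 cardiomyocyte genes, 12925, and the highest of 16 neutrophil and monocyte genes, 4002, against 557 and 559 in ischemia replicates 1 and 3 and 24.2 to 60.0 in sham. Of the 14 neutrophil and monocyte genes tested, 11 passed as higher in ischemia in edgeR, and Retnlg was at 0 counts in all sham samples. Fpr1 was at 0 counts in all sham samples and in ischemia replicates 1 and 3. The groups did not overlap in the summed level of these genes, so ischemia and the neutrophil and monocyte signal cannot be told apart across the groups. Sham replicate 3, in which Asns, Psat1 and Phgdh were highest among sham, had the highest summed FPKM of 7 adipocyte genes, 458 against 8.45 to 106 in the other samples, and of 7 fibroblast genes, 2261 against 309 to 1147. The adipocyte list was chosen after its values were seen. Summed endothelial markers, 5 genes in the table, were between 151 and 183 in all samples. Whether these cell types carried the member RNA was not tested.

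**Figure D3:**
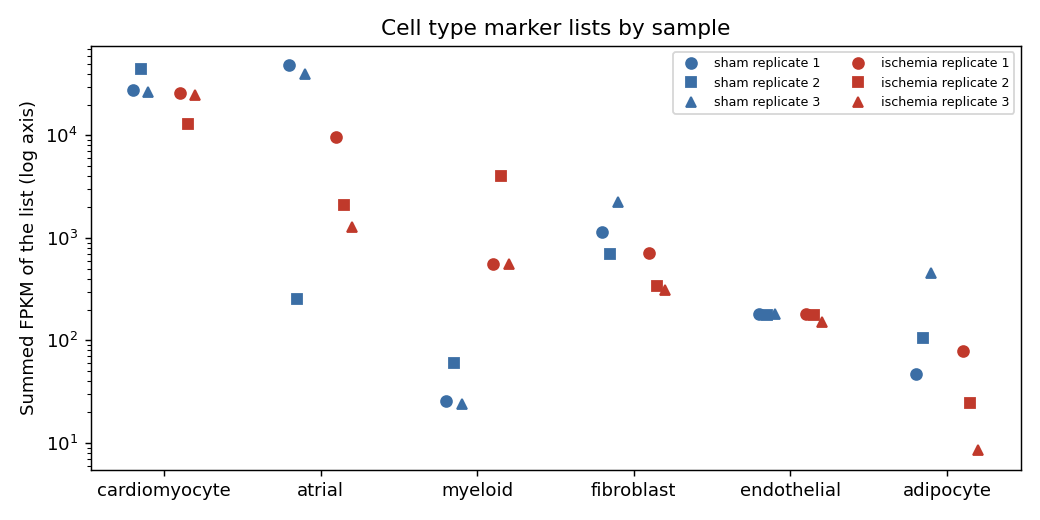
Summed FPKM of each cell type marker list in each sample on a log axis, with sham and ischemia replicates as separate markers. Neutrophil and monocyte genes (myeloid) are at 24.2 to 60.0 in sham and 557 to 4002 in ischemia, the atrial list spans 253 to 48468 within sham, and the adipocyte list is highest in sham replicate 3.

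Upstream of Atf4, 14 genes of eIF2 control were in the table and all were tested. They comprise the 4 eIF2 kinases, subunits of eIF2 and of its exchange factor eIF2B, Ppp1r15b, a regulator of the phosphatase, and Impact, an inhibitor of the kinase Eif2ak4. Eif2b3 and Eif2s1 passed as higher, beside 5.18% of all tested genes, and 12 did not pass. FPKM of Eif2s1, the subunit that is phosphorylated, was 30.8, 18.7 and 27.0 in sham and 47.2, 93.9 and 61.6 in ischemia, a log2 fold change of 1.32 ± 0.26 with an adjusted p of 0.0430 in edgeR. Without ischemia replicate 2, Eif2s1 was at 1.08 ± 0.21 with an adjusted p of 0.0571. FPKM of Eif2b3 was 4.45, 3.44 and 4.53 in sham and 9.34, 14.4 and 12.7 in ischemia, a log2 fold change of 1.47 ± 0.21 with an adjusted p of 0.0291. None of the 4 kinases passed. Log2 fold changes were -0.09 for Eif2ak1, which senses haem, 0.11 for Eif2ak2, which senses double-stranded RNA, -0.18 for Eif2ak3, which senses misfolded protein, and 0.00 for Eif2ak4, which senses missing amino acids, with adjusted p between 0.687 and 0.992. Without ischemia replicate 2, Eif2ak2 turned to -0.81 and Eif2ak3 was at -0.53, with adjusted p of 0.140 and 0.190. Levels of eIF2 phosphorylation were not measured. Eif2s3, the X-linked subunit, had its highest FPKM, 32.0, in sham replicate 1, the sample with few counts on chromosome Y, against 10.8 to 21.0 in the others. A list of the relay that reports mitochondrial stress to eIF2, Oma1 and Dele1, together with mitochondrial chaperones and proteases had 0 of 10 tested genes past the threshold in edgeR, DESeq2 or limma. At an unadjusted p under 0.05 there were 0 in edgeR, 1 lower in DESeq2, and 1 higher and 1 lower in limma on log2(FPKM + 0.1). Dele1, the messenger of the relay, was 78.1, 98.6 and 70.4 in sham and 67.1, 21.0 and 40.3 in ischemia in FPKM, with a log2 fold change of -1.04 ± 0.48 and an adjusted p of 0.181 in edgeR. At the other end of the list, Yme1l1, a protease of the inner mitochondrial membrane, had a log2 fold change of 0.73 ± 0.61 with an adjusted p of 0.426, which turned to -0.12 without ischemia replicate 2.

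Among 11 leucine zipper partners and relatives of Atf4 and their regulators, 3 passed as higher, beside 5.18% of all tested genes, and none as lower in edgeR. Atf5 alone was lower at an unadjusted p under 0.05, and DESeq2 called it lower. FPKM of Cebpb was 9.32, 10.1 and 17.1 in sham and 63.4, 143.2 and 54.0 in ischemia, a log2 fold change of 2.73 ± 0.42 with an adjusted p of 0.0303 in edgeR. FPKM of Cebpd was 12.8, 9.25 and 13.1 in sham and 100.4, 101.1 and 50.6 in ischemia, a log2 fold change of 2.75 ± 0.28 with an adjusted p of 0.0246. Both are inflammation-induced C/EBP factors, and Cebpd was as high in ischemia replicate 1 as in replicate 2. Batf3, a factor of dendritic cell development, passed at 2.79 ± 0.57 with an adjusted p of 0.0445. Without ischemia replicate 2, Batf3 was at 2.19 ± 0.47 and did not pass, at an adjusted p of 0.0643. Atf3, itself induced by Atf4, overlapped between the groups with FPKM of 4.81, 1.89 and 2.14 in sham and 4.17, 31.2 and 9.64 in ischemia. Atf5, the closest relative of Atf4, had FPKM of 86.6, 55.5 and 103.2 in sham and 53.8, 69.1 and 44.6 in ischemia, a log2 fold change of -0.62 ± 0.21 with an adjusted p of 0.111 in edgeR. Its ischemia samples all lay below its sham samples in CPM, while the groups overlapped in FPKM.

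Of 29 other described targets of Atf4, 27 were in the table and 24 were tested. In edgeR, 4 passed as higher, none as lower, and 20 did not pass, while 2 were lower at an unadjusted p under 0.05 and DESeq2 called 2 lower. Slc7a5 and Slc3a2 encode the light and the heavy chain of the transporter that imports leucine and other large amino acids, and both rose. FPKM of Slc7a5 was 3.41, 2.52 and 3.26 in sham and 35.1, 43.7 and 26.8 in ischemia, a log2 fold change of 3.43 ± 0.20 with an adjusted p of 0.0110 in edgeR. Its 3 ischemia samples lay close together, unlike those of Trib3 or Chac1. Slc3a2 rose by 1.19 ± 0.21 with an adjusted p of 0.0365. Eif4ebp1, a repressor of cap-dependent translation, rose by 1.38 ± 0.18 with an adjusted p of 0.0272, and Ddit4, an inhibitor of mTORC1 that hypoxia also induces, rose by 1.48 ± 0.24 with an adjusted p of 0.0327. The 4 genes passed without ischemia replicate 2 as well. The median log2 fold change of the 24 was 0.43, and 0.25 without ischemia replicate 2. Over the 7 pathway lists together, 96 genes were tested, 17 passed as higher and 0 as lower, 70 were above 0 and the median was 0.51. Of all 13964 tested genes, 5.18% passed as higher and 6968 were above 0. Without ischemia replicate 2, 15 of the list genes passed as higher, beside 3.31% of all tested genes, and the median over the 96 was 0.32. Without any 1 of the sham samples or ischemia replicate 3, 0 passed.

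Mthfd2 and Shmt2 act in the mitochondrial arm of folate metabolism, and the other enzymes of serine and folate metabolism were examined next to them. Of 16 such genes, 14 were tested, 2 passed as higher in edgeR, beside 5.18% of all tested genes, and none as lower, with 1 lower at an unadjusted p under 0.05 and 1 called lower by DESeq2. Mthfd1l, the mitochondrial formate-producing enzyme that acts after Mthfd2, had FPKM of 1.44, 0.842 and 1.57 in sham and 4.20, 17.0 and 6.86 in ischemia, a log2 fold change of 2.77 ± 0.51 with an adjusted p of 0.0387. Shmt1, the cytosolic counterpart of Shmt2, had FPKM of 1.81, 2.58 and 2.54 in sham and 8.12, 6.81 and 7.91 in ischemia, a log2 fold change of 1.62 ± 0.29 with an adjusted p of 0.0372. Thus both serine hydroxymethyltransferases rose, while Mthfd2 and Mthfd1l rose in the mitochondrial arm. Mthfd1, the cytosolic enzyme that combines their activities, had FPKM of 11.4, 10.2 and 11.7 in sham and 12.5, 11.8 and 12.7 in ischemia, with a log2 fold change of 0.07 ± 0.16 and an adjusted p of 0.777. Psph, the last step of serine synthesis after Phgdh and Psat1, was 3.72, 2.50 and 6.51 in sham and 6.68, 10.3 and 4.99 in ischemia in FPKM and did not pass, at an adjusted p of 0.230. Sham replicate 3 was the highest sham sample for Phgdh, Psat1 and Psph alike.

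**Figure D4:**
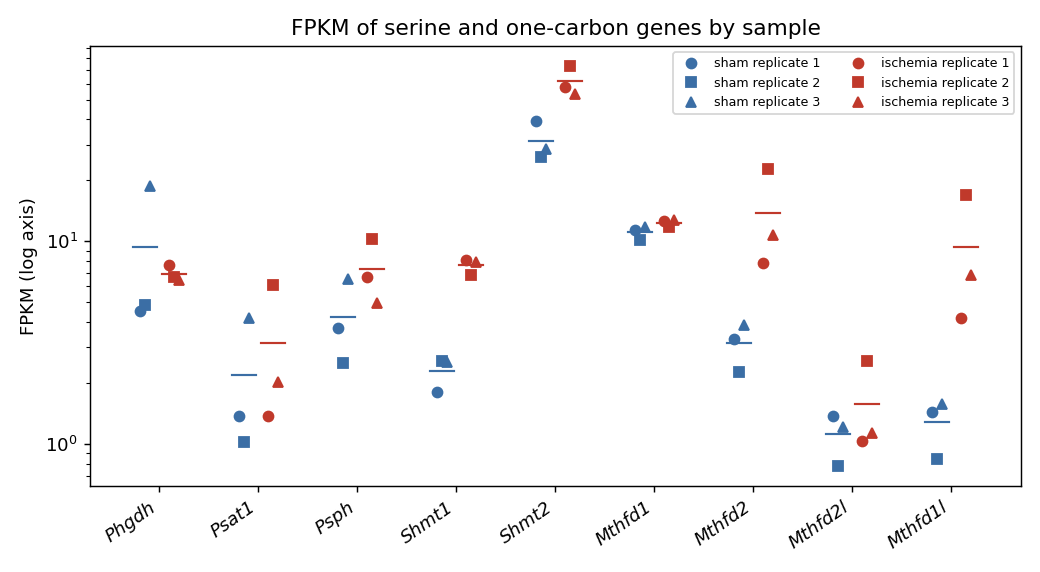
FPKM of serine and one-carbon genes in each sample on a log axis, with bars at the group means. Mthfd2, Mthfd1l, Shmt1 and Shmt2 are higher in each ischemia sample than in every sham sample, Mthfd1 stays between 10.2 and 12.7 in all 6, and Phgdh and Psat1 are highest among sham in replicate 3.

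Close relatives were compared within each sample as a ratio of FPKM, which does not depend on library scaling, in 7 pairs with a two-sided exact permutation test. With 3 samples against 3 the smallest p is 0.1, so no pair could pass a threshold of 0.05. The ratio of Atf4 to Atf5 was 0.977, 1.32 and 0.878 in sham and 2.30, 5.76 and 5.80 in ischemia, a difference of 2.03 on the log2 scale (exact p = 0.1, adjusted 0.175). The ratio of Mthfd2 to Mthfd2l, a paralog in the mitochondria, was 2.39, 2.91 and 3.18 in sham and 7.54, 8.86 and 9.53 in ischemia, a difference of 1.62 (exact p = 0.1). In this ratio ischemia replicate 2 did not stand apart, and Mthfd2l was also highest in that sample. The ratio of Mthfd2 to Mthfd1 was 0.287, 0.223 and 0.329 in sham and 0.626, 1.94 and 0.845 in ischemia, a difference of 1.87 (exact p = 0.1), so that Mthfd2 exceeded Mthfd1 in ischemia replicate 2 alone. The ratio of Chac1 to Chac2 was 0.259, 0.296 and 0.254 in sham and 0.347, 1.91 and 0.322 in ischemia, a difference of 1.15 (exact p = 0.1) that was 0.31 without ischemia replicate 2. The remaining pairs overlapped between the groups, with log2 differences of -0.75 for Shmt2 to Shmt1, 0.05 for Ppp1r15a to Ppp1r15b and 0.39 for Trib3 to Trib1 (exact p = 0.2, 0.8 and 0.7). Without ischemia replicate 2 the Ppp1r15a and Trib3 differences were -0.08 and -0.36, and without sham replicate 1 the Shmt2 difference was -0.41.

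In FPKM, which compares genes per length, the order of the sham means was Atf4, Ppp1r15a, Ddit3, Shmt2, Phgdh, Asns, Mthfd2, Psat1, Trib3 and Chac1, from 82.7 to 0.599. Neighbours in this order did not overlap in their sample ranges only between Atf4 and Ppp1r15a, Shmt2 and Phgdh, and Psat1 and Trib3. In ischemia the order was Atf4, Ppp1r15a, Shmt2, Ddit3, Mthfd2, Asns, Trib3, Phgdh, Psat1 and Chac1, from 260.2 to 2.22, and only Phgdh and Psat1 did not overlap.

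Likeness to Atf4 was measured as the root mean square difference of log2 CPM over the 6 samples after each gene was centred on its mean. The nearest non-members were Actr3 at 0.087, Dph5 at 0.11, SNORD14 at 0.11, Malt1 at 0.11 and Itga5 at 0.12. Among 13963 genes the nearest member was Mthfd2 at rank 371, followed by Ppp1r15a at rank 1021 and Shmt2 at rank 1651. Asns, Ddit3, Psat1 and Chac1 lay at ranks 3489 to 5260, and Trib3 and Phgdh were the farthest at ranks 8842 and 9363.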

How the data were processed

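Stranded total RNA of 6 rat myocardial samples, 3 sham and 3 ischemia, was analysed from 1 table of 32623 genes. Per the labels, the authors' processing used STAR and HTSeq, and versions and the genome build are not given in the sources used here, so gene positions are as the table lists them. The authors deposited raw counts, as whole numbers without normalization, and the FPKM values deposited by the authors scaled them by gene length and library size, with 0.0001 in place of 0.

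Genes whose FPKM averaged at least 0.5 were tested on counts with the quasi-likelihood test of edgeR 4.0.16 (R 4.3.3), TMM scaling and no covariate, two-sided, with Benjamini-Hochberg adjustment over 13964 genes and a threshold of 0.05. Each member passed this filter on its sham mean alone. The second rule, log2 fold change above 2 with unadjusted p under 0.01, follows the selection the study describes. At these depths 3 counts correspond to 0.0377 to 0.0438 CPM, a limit for counting error only. The edgeR step was run on simulated counts in which 200 genes were changed and genes varied independently. That setting differs from these data, so the run does not bear on the calls. Alternatives were no filter and a filter at a mean FPKM of 5, median-ratio and total-count scaling, quantile normalization, limma 3.58.1 on log2(FPKM + 0.01, 0.1 or 1), DESeq2 1.42.0, the replicate number as a block, an atrial covariate, removal of the mitochondrial genome, and each sample left out. Leaving samples out of the paralog ratios was added after seeing the data. No covariate for neutrophil and monocyte genes was used, because their summed level did not overlap between the groups. Replicate numbers were read from the titles, and no label ties a sham sample to the ischemia sample of the same number, so they were not taken to pair the samples.

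The members and lists were chosen with earlier results of these data known. All members were named, and of each list every gene past the threshold (up to 6) or otherwise its highest and lowest fold change. The eIF2 kinases, Atf3, Atf5, Mthfd1, Psph, Eif2s3 and the adipocyte genes were named after their values were seen. Motifs were searched in RefSeq promoters (GRCr8). Reads of near-identical gene copies may have been split by the counting. Computations also used Python 3.11.15, SciPy 1.17.1 and matplotlib 3.10.9.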

Additional observations from a re-analysis of the deposited data

How the results depend on the processing

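Mthfd2 stayed above 0 in all alternatives that tested it (log2 fold change 1.55 to 2.30), and so did Atf4 (0.97 to 1.87), Shmt2 (0.78 to 1.02), Trib3 (1.28 to 3.77), Ppp1r15a (0.30 to 1.23) and Asns (0.89 to 2.01). The calls did not hold as well. Against 2 members called higher, 1 was called with no filter, with quantile normalization and with limma at pseudocounts of 0.01 and 1, 0 with total-count scaling, with the replicate block and with the atrial covariate, and 4 with DESeq2. Against 723 of all 13964 tested genes called higher, quantile normalization called 820, limma at these pseudocounts 781 and 657, and total-count scaling 509. With no filter, 493 of 20541 genes were called higher. Leaving out 1 sample gave 0 to 3, and the 3 without ischemia replicate 1 stood beside 10.7% of all tested genes. By the rule of a log2 fold change above 2 with p under 0.01, the 1 member became 0 with quantile normalization, limma at pseudocounts of 0.1 and 1, the replicate block and the atrial covariate, 2 with DESeq2, and 0 to 2 with 1 sample left out. The median of the members ranged from 0.55 to 1.39 and the members without overlap from 4 to 7 when 1 sample was left out, beside 23.6% to 30.6% of all tested genes without overlap. The 17 pathway genes called higher became 35 with DESeq2, 0 with the replicate block and with the atrial covariate, and 0 to 26 with 1 sample left out. None was called lower, against 3 with DESeq2 and 0 to 1 with 1 sample left out. Over all genes the replicate block and the atrial covariate left 0 calls in either direction, with 3349 and 2176 genes at an unadjusted p under 0.05, and DESeq2 gave 2071 higher and 1742 lower. Same-numbered samples did not deviate together (mean correlation -0.115). The mean for differently numbered ones, 0.0553, is largely fixed by that value, because the deviations within a group sum to 0. The atrial covariate turned Ddit3 to -0.43 and Phgdh to 0.13. With 1 sample left out, Ddit3 ranged from -0.48 to 0.92, Chac1 from -0.15 to 2.17, Psat1 from -0.34 to 1.22 and Phgdh from -0.81 to 0.41. The cause was not tested. DESeq2 gave no p for Chac1. With 3 samples a group, the spread between samples limits the precision.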

Other observations

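The endoplasmic reticulum chaperone response, which the Atf6 and Xbp1 branches of the unfolded protein response control beside Atf4, was examined in 17 genes. All 17 had a log2 fold change above 0, with a median of 1.16, 4 passed as higher in edgeR and none as lower, none was lower at an unadjusted p under 0.05, and DESeq2 called 12 higher and 0 lower. Over all 13964 tested genes, 6968 were above 0, 5.18% passed as higher in edgeR and DESeq2 called 2071 higher and 1742 lower. Creld2 rose by 2.44 ± 0.44 with an adjusted p of 0.0377, Sdf2l1 by 1.54 ± 0.27 with an adjusted p of 0.0372, Manf by 1.45 ± 0.24 with an adjusted p of 0.0349 and Xbp1, the transcription factor of its branch, by 1.08 ± 0.23 with an adjusted p of 0.0485. Without ischemia replicate 2, Xbp1 was at 0.83 ± 0.16 with an adjusted p of 0.0526. FPKM of Creld2 was 15.3, 8.96 and 13.9 in sham and 46.8, 132.3 and 43.6 in ischemia. Ischemia replicate 2 was the highest sample for all 17, beside 32.0% of all tested genes, and it also had the highest sum of neutrophil and monocyte genes. Without it the median was 0.85.

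Of 12 genes of proline, glutamine, aspartate and alanine metabolism and related amino acid synthesis, 10 were tested and 2 passed as higher in edgeR, beside 5.18% of all tested genes, with none lower, 2 lower at an unadjusted p under 0.05 and 1 called lower by DESeq2. Glul, which makes glutamine, had FPKM of 66.7, 73.8 and 82.9 in sham and 201.4, 215.8 and 234.3 in ischemia and rose by 1.45 ± 0.22 with an adjusted p of 0.0298. Cad, which starts pyrimidine synthesis, rose by 1.06 ± 0.18 with an adjusted p of 0.0361. The 3 ischemia samples of both genes lay close together, and both passed without ischemia replicate 2.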
